A study of Mus musculus with 2 samples.

Results

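The genes of general mRNA decay were examined as 40 members, which were listed by name with no threshold on their values, and all 40 were among the 32286 features counted in both libraries. They comprised 7 decapping genes, the 7 genes of the Lsm1-7 ring, 2 Xrn exonucleases, 8 genes of the exosome core, 4 nucleases that degrade RNA from the 3' end, 3 genes of the Ski complex and 9 genes of nonsense-mediated decay (NMD).

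Most mRNAs are degraded after their poly(A) tail has been shortened, a step in which the Ccr4-Not complex and its deadenylases, Cnot8 among them, take part. The Lsm1-7 ring and Patl1 then bind the shortened end, the Dcp2 enzyme removes the cap and Xrn1 degrades the body from the 5' end, whereas the RNA exosome, helped in the cytoplasm by the Ski complex, degrades from the 3' end. NMD removes mRNAs whose stop codon is read as premature, through Upf1, the kinase Smg1 and the endonuclease Smg6, and several NMD genes are known to be held down by NMD of their own transcripts.

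Single-cell RNA sequencing (scRNA-seq) had been carried out on mouse embryonic stem cells (ESCs) at 0 h and on cells differentiated for 48 h towards the formative epiblast (48h-EpiLCs), with 1 library per stage and no replicates. Each library was a mixture of wild-type (WT) cells carrying the ROSA mT/mG reporter, which transcribes tdTomato, and of Cnot8 knockout (KO) cells, both of the ICR strain by the labels. The genotype field of the labels reads wild type for both mixtures, and the titles name WT and KO. ESCs were kept in serum/LIF on feeder cells, whereas 48h-EpiLCs grew on Matrigel in N2B27 with activin A, bFGF and KSR, so that stage, medium, substrate and library cannot be told apart. The KO allele had been made with Cas9 and a guide RNA against exon 2, and KO ESC lines had been derived from blastocysts of heterozygous parents by picking colonies. The WT and the KO cells are therefore separate lines, and genotype and line cannot be told apart either.

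Cells were assigned by their own transcripts. WT cells had at least 1 tdTomato unique molecular identifier (UMI) and 0 UMIs of the Y-linked genes Ddx3y, Eif2s3y, Kdm5d and Uty, and KO cells had 0 tdTomato UMIs and at least 2 Y-linked UMIs. This gave 435 WT and 2978 KO cells among 11054 ESCs, and 368 WT and 2977 KO cells among 9400 48h-EpiLCs, whereas 7641 and 6055 cells fell in neither class. Of the 517 ESCs and 452 48h-EpiLCs with tdTomato, 35 and 35 also had 2 or more Y-linked UMIs and 47 and 49 had 1, and all of these were left out. UMIs were summed per class, to 6154790 and 44110356 in WT and KO ESCs and to 6219834 and 59291903 in WT and KO 48h-EpiLCs. Levels are given as CPM, the UMIs of a gene scaled to a common total of each class, with exact Poisson intervals. Ratios are given as log2 with exact binomial intervals at 95%. Both kinds of interval hold counting error alone, cells are not replicates and no test was run. A class sum does not separate fewer cells with a transcript from less transcript per cell.

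The labels were checked on markers. The summed level of the naive genes Zfp42, Esrrb, Klf2, Klf4 and Tfcp2l1 was 942 CPM in WT and 1257 CPM in KO ESCs, against 88.9 and 214 CPM in 48h-EpiLCs, and that of Fgf5, Pou3f1, Otx2 and Dnmt3b was 310 and 351 CPM against 1109 and 954 CPM. Unlike the other naive genes, Klf4 was lower in KO cells, at 155 and 92.0 CPM in WT and KO ESCs and 8.52 and 4.94 CPM in 48h-EpiLCs. In ESCs, Fgf5 (2.76 and 1.29 CPM) and Otx2 (19.2 and 12.4 CPM) were lower in KO cells, whereas Pou3f1 and Dnmt3b were higher. Summed markers of feeder fibroblasts (7 genes) were 10.2 and 35.8 CPM in WT and KO ESCs and 6.91 and 10.7 CPM in 48h-EpiLCs, with Lum at 0 in both WT classes and Col3a1 and Postn at 0 in WT 48h-EpiLCs. Summed markers of primitive endoderm (7 genes) were 21.8, 43.3, 4.02 and 7.86 CPM in the same order, with Sox7 and Pdgfra at 0 in WT 48h-EpiLCs. Summed 2-cell-like markers (6 genes) were 8.77, 3.58, 1.77 and 3.93 CPM, with Zscan4f and Tcstv1 at 0 in WT ESCs and Tcstv3 at 0 in WT 48h-EpiLCs. KO ESCs thus held the most feeder and endoderm signal, and leaving out cells with at least 5 UMIs of any of these lists shifted no count of members by over 1.5 times. The part of these cells in the values was not tested further. Median UMIs per cell were 13151 and 13368 in WT and KO ESCs and 15598 and 17628 in WT and KO 48h-EpiLCs. The libraries shared 41 barcodes, 2 of them among the classes compared.

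Cnot8 itself was examined before the members. Its RNA was 43.1 CPM in WT and 72.1 CPM in KO ESCs, and 49.7 CPM in WT and 62.6 CPM in KO 48h-EpiLCs. The RNA was thus higher in the KO cells at both stages (log2 ratio 0.74 and 0.33), and tags from the 3' end do not read the lesion in exon 2, so that they give no check of the KO label.

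**Figure D1:**
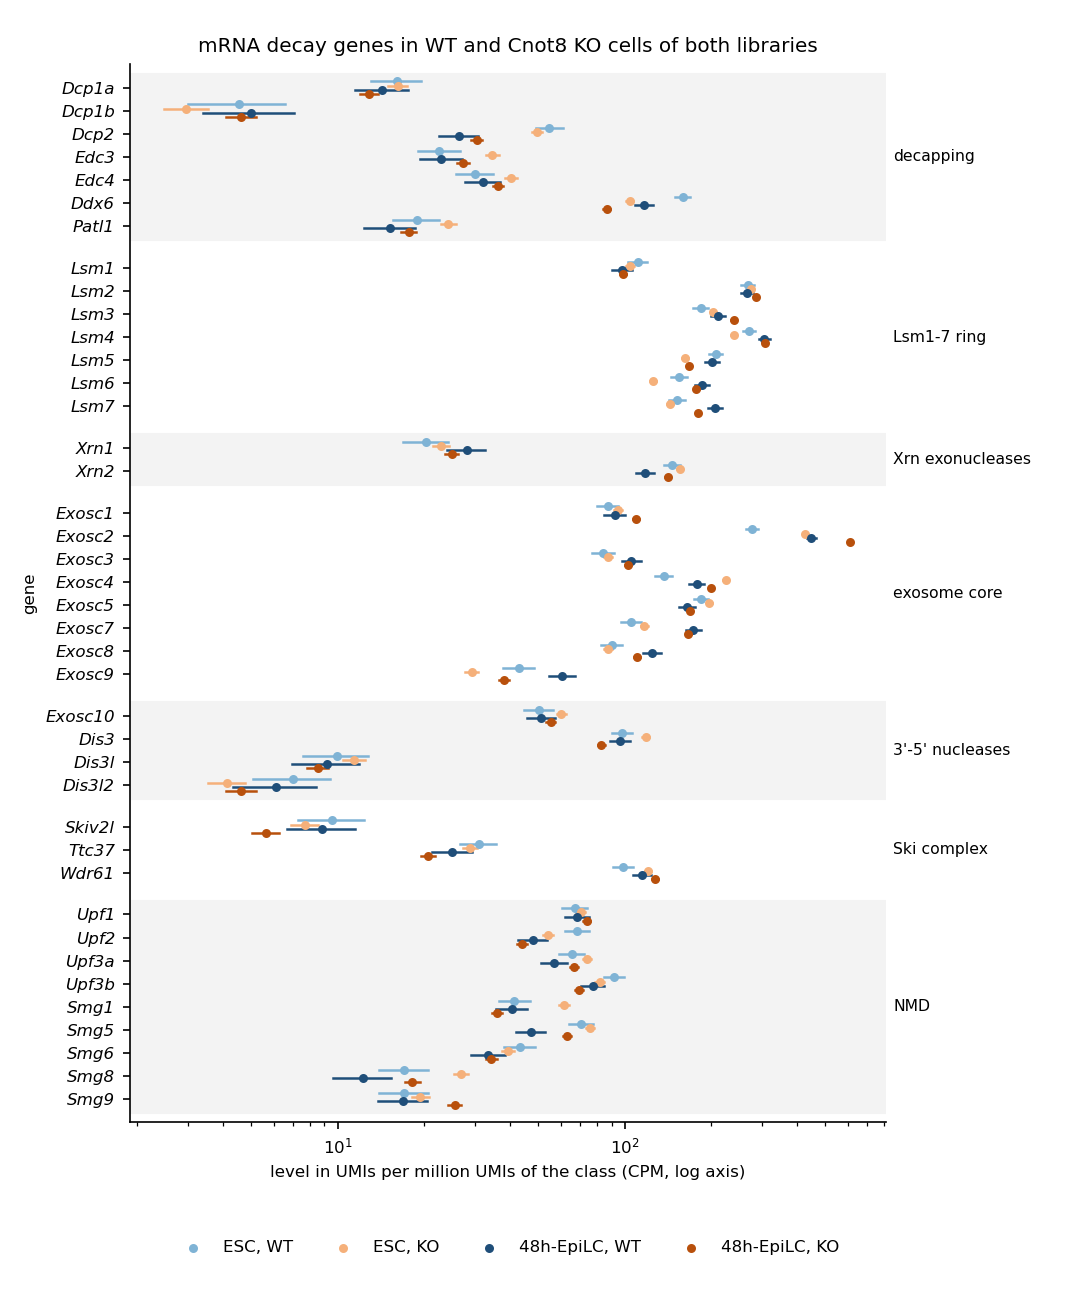
Level of each of the 40 genes in CPM (log axis) in the 4 classes, with points for the level and lines for the 95% Poisson interval, by group. For most genes the 4 points lie close together, whereas Dcp2 separates the stages (54.6 and 49.6 CPM in ESCs against 26.5 and 30.5 CPM in 48h-EpiLCs) and Exosc9 separates the lines at each stage.

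The comparison of KO with WT asked whether transcripts of the other decay steps differ where a deadenylase has been removed. In ESCs, Exosc4, Smg8, Edc3 and Exosc2 were at least 1.5-fold higher in KO cells and Dis3l2 and Ddx6 at least 1.5-fold lower, that is 4 and 2 of the 39 members with a mean of at least 5 CPM. Among all 9277 genes at this level, 13.9% were at least 1.5-fold higher and 5.61% at least 1.5-fold lower. In 48h-EpiLCs Smg9 was at least 1.5-fold higher and Exosc9 and Skiv2l at least 1.5-fold lower, or 1 and 2 of 39 members, against 9.04% and 4.95% of 9385 genes. These are 10.3% and 5.13% of the members in ESCs and 2.56% and 5.13% in 48h-EpiLCs, below the share of all genes for the higher members at both stages and near it for the lower members. The counts changed with another definition of WT cells, at least 20000 UMIs and 0 Y-linked UMIs. Then 1 member was higher and 1 lower in ESCs, and 0 and 0 in 48h-EpiLCs. The higher member was Dis3l, and Exosc4, Smg8, Edc3 and Exosc2 were all under 1.5-fold. This definition asks for no tdTomato, so that KO cells without Y-linked UMIs can enter it. It also sets deep cells, 286 ESCs and 742 48h-EpiLCs, against KO cells of any depth. The part of depth and of such KO cells was not tested.

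Smaller differences were read from the intervals. The 95% interval lay above a ratio of 1 for 14 members and below it for 8 in ESCs (39.3% and 19.4% of all genes), and above for 12 and below for 9 in 48h-EpiLCs (31.9% and 18.7%). The median log2 ratio of the members was 0.09 in ESCs and 0.01 in 48h-EpiLCs, and the median of all genes was 0.13 and 0.08. Relative to the median of all genes, the members' median was -0.04 in ESCs and -0.06 in 48h-EpiLCs. With ratios counted from that median, 0 members were at least 1.5-fold higher and 3 at least 1.5-fold lower in ESCs.

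**Figure D2:**
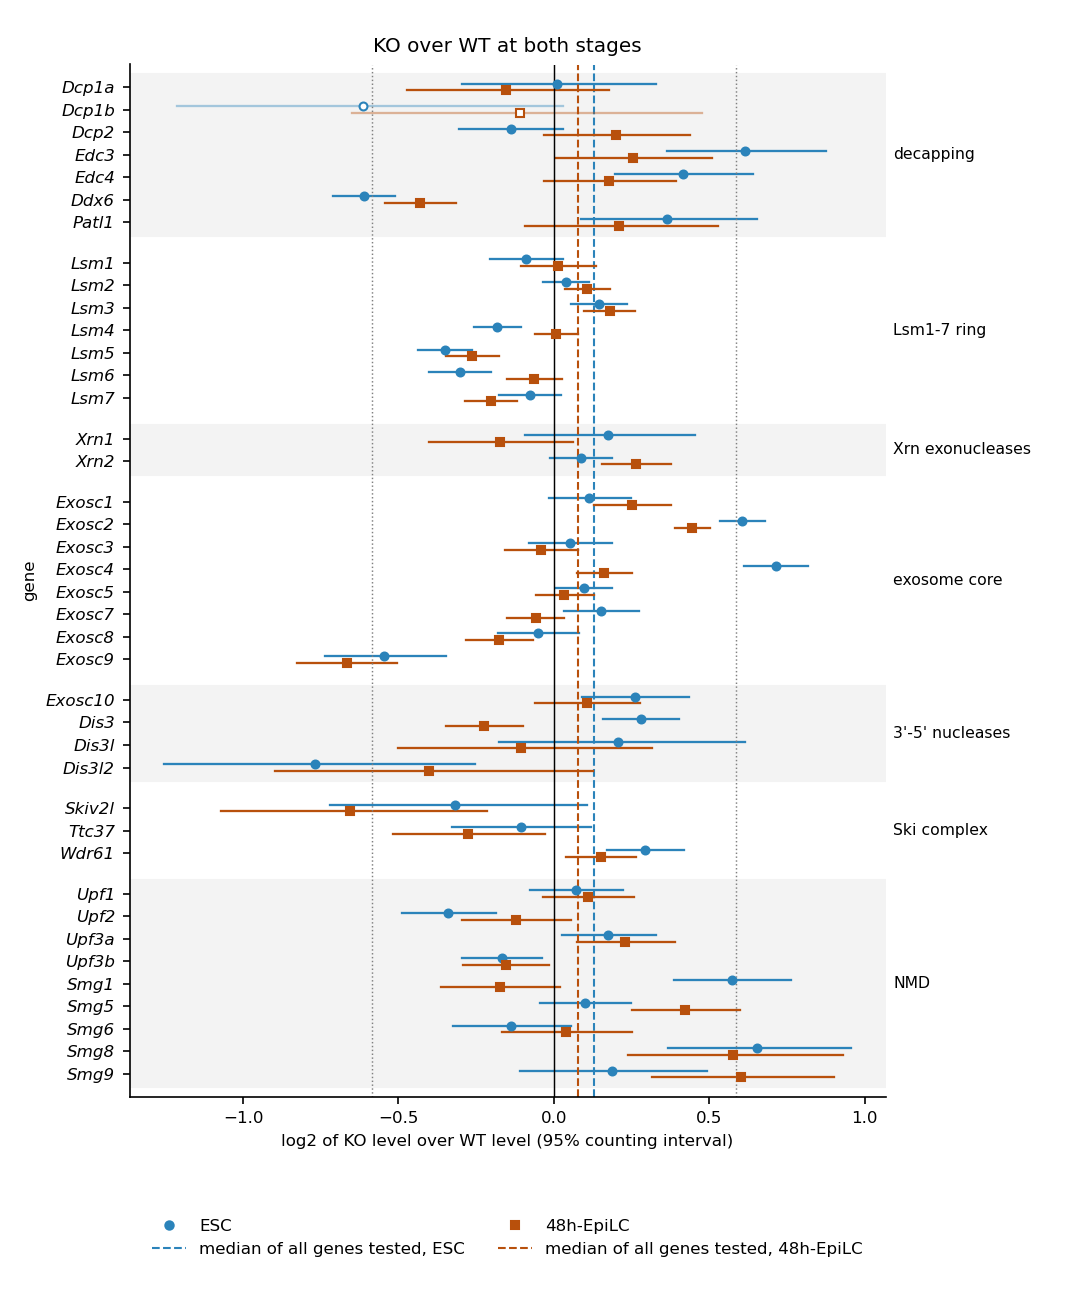
Log2 ratio of the KO to the WT level of each gene in ESCs (circles) and 48h-EpiLCs (squares), with 95% counting intervals. Dashed lines mark the median of all genes tested (0.13 and 0.08), dotted lines 1.5-fold, and open symbols a gene under 5 CPM. Most points lie between the dotted lines, and Ddx6 and Exosc9 lie left of 0 at both stages. Several genes, Dis3 and Smg1 among them, lie on opposite sides of 0 at the 2 stages, but only for Dis3 are both intervals clear of 0.

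Decapping genes differed in direction. Ddx6, an RNA helicase that activates decapping and represses translation, was at 159 CPM in WT and 104 CPM in KO ESCs, and at 117 CPM in WT and 86.7 CPM in KO 48h-EpiLCs. It was lower in KO cells at both stages, with log2 ratios of -0.61 (-0.71 to -0.51) and -0.43 (-0.54 to -0.32). Edc3, an enhancer of decapping that bridges Dcp2 and Ddx6, was at 22.6 and 34.6 CPM in WT and KO ESCs, and 23.0 and 27.4 CPM in WT and KO 48h-EpiLCs, higher in KO cells by 0.62 (0.36 to 0.88) and 0.25 (0.01 to 0.51). Edc3 overlaps Clk3 on the opposite strand, which was at 21.8 and 25.3 CPM in WT and KO ESCs, and 23.3 and 19.5 CPM in WT and KO 48h-EpiLCs. The part of Clk3 in the Edc3 values was not tested. Edc4, the scaffold of the decapping complex, and Patl1, which links deadenylation to decapping, had ratios of 0.42 and 0.36 in ESCs and of 0.18 and 0.21 in 48h-EpiLCs, where both intervals covered 0.

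The decapping enzyme and its activator differed little between the lines. Dcp2 had a KO over WT log2 ratio of -0.14 (-0.31 to 0.03) in ESCs and 0.20 (-0.03 to 0.44) in 48h-EpiLCs. Dcp1a, which stimulates Dcp2, had ratios of 0.01 and -0.15 with intervals that covered 0, and Dcp1b, its paralog, was between 2.97 and 4.98 CPM in all classes and was not compared. Median ratios of the 6 decapping genes compared were 0.19 at each stage. The summed level of all 7 went the other way, at 306 and 272 CPM in WT and KO ESCs and 233 and 216 CPM in WT and KO 48h-EpiLCs. Ddx6 had the highest level of the group in every class.

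The Lsm1-7 ring, which binds the oligoadenylated end of deadenylated mRNAs, had ratios from -0.35 to 0.15 in ESCs and from -0.26 to 0.18 in 48h-EpiLCs. Lsm5 had the lowest ratio at both stages, at 207 and 163 CPM in WT and KO ESCs and 201 and 168 CPM in WT and KO 48h-EpiLCs. Lsm3 had the highest, at 184 and 204 CPM in ESCs and 211 and 239 CPM in 48h-EpiLCs. Lsm4 (-0.18) and Lsm6 (-0.30) were lower in KO ESCs beyond their intervals, whereas their ratios in 48h-EpiLCs were 0.01 and -0.06 with intervals that covered 0. Lsm2 to Lsm7 also belong to the nuclear ring with Lsm8, so that their levels do not report on the cytoplasmic ring alone.

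The Xrn exonucleases showed small ratios. Xrn1, the cytoplasmic enzyme, was at 20.3 and 22.9 CPM in WT and KO ESCs, and 28.1 and 24.9 CPM in WT and KO 48h-EpiLCs, and both intervals covered 0. Xrn2, its nuclear relative, was at 146 and 155 CPM and at 118 and 141 CPM, with ratios of 0.09 (-0.01 to 0.19) and 0.26 (0.16 to 0.38).

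In the exosome core, which forms the barrel through which RNA is threaded to the nucleases, Exosc4, Exosc2 and Exosc9 differed most between the lines. Exosc4 was at 137 CPM in WT and 225 CPM in KO ESCs, and at 178 CPM in WT and 199.6 CPM in KO 48h-EpiLCs, with ratios of 0.71 (0.61 to 0.82) and 0.16 (0.07 to 0.25). Its level was lowest in WT ESCs and highest in KO ESCs. Exosc9 was at 42.7 and 29.3 CPM in WT and KO ESCs, and 60.5 and 38.1 CPM in WT and KO 48h-EpiLCs. It was lower in KO cells at both stages, by -0.54 (-0.74 to -0.35) and -0.67 (-0.82 to -0.51). Exosc9 overlaps Ccna2 on the opposite strand. Ccna2 itself was at 123 and 115 CPM in WT and KO ESCs, and 148 and 157 CPM in WT and KO 48h-EpiLCs. The part of Ccna2 in the Exosc9 values was not tested.

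Exosc2, a subunit of the cap of the barrel, was at 279 CPM in WT and 424 CPM in KO ESCs and at 447 CPM in WT and 609 CPM in KO 48h-EpiLCs. It was higher in KO cells by 0.61 (0.53 to 0.68) and 0.45 (0.39 to 0.50). Exosc1, Exosc3, Exosc5, Exosc7 and Exosc8 had ratios between -0.18 and 0.25 at both stages. The median ratio of the 8 core genes was 0.11 in ESCs and -0.00 in 48h-EpiLCs, and 0.10 and -0.04 without Exosc2. The sum of the core was 1010.1 CPM in WT and 1262 CPM in KO ESCs, whereas without Exosc2 it was 731 and 838 CPM. In 48h-EpiLCs the sum without Exosc2 was 899 CPM in WT and 896 CPM in KO cells.

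Nucleases that act with or beside the exosome differed in direction. Dis3, the catalytic subunit of the nuclear exosome, was at 97.6 and 119 CPM in WT and KO ESCs, and 96.6 and 82.8 CPM in WT and KO 48h-EpiLCs. It was the only member higher in KO cells at one stage and lower at the other beyond both intervals, with ratios of 0.28 (0.16 to 0.40) and -0.22 (-0.35 to -0.10). That is 1 of 39 members, and the share of all genes that reversed in this way was not computed. Dis3l2, which degrades uridylated RNAs without the exosome, was at 6.99 and 4.10 CPM in ESCs, and 6.11 and 4.62 CPM in 48h-EpiLCs, from 43 and 38 UMIs in the WT classes. Its ratios were -0.77 (-1.25 to -0.25) and -0.40 (-0.90 to 0.13). Exosc10, a nuclear exosome nuclease, had ratios of 0.26 (0.09 to 0.44) and 0.11 (-0.06 to 0.28), and Dis3l, the cytoplasmic exosome nuclease, was between 8.52 and 11.4 CPM in all classes.

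In the Ski complex, which feeds mRNAs into the cytoplasmic exosome, Skiv2l is the helicase, Ttc37 the scaffold and Wdr61 a shared adaptor. Skiv2l was at 9.59 and 7.69 CPM in WT and KO ESCs, and 8.84 and 5.62 CPM in WT and KO 48h-EpiLCs, with ratios of -0.32 (-0.72 to 0.11) and -0.65 (-1.07 to -0.22). It overlaps Dxo on the opposite strand, a decapping quality-control enzyme, which was at 22.9 and 14.8 CPM and at 18.0 and 12.9 CPM, with lower values in KO cells as well. The part of Dxo in the Skiv2l values was not tested. Ttc37 was at 31.0 and 28.8 CPM in ESCs, and 25.1 and 20.7 CPM in 48h-EpiLCs, whereas Wdr61 was higher in KO cells by 0.29 and 0.15.

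Among NMD genes, Smg8 and Smg9, which bind and restrain the Smg1 kinase, had higher values in KO cells at both stages. Smg8 was at 17.1 and 26.9 CPM in WT and KO ESCs, and 12.2 and 18.2 CPM in WT and KO 48h-EpiLCs, higher in KO cells by 0.66 (0.37 to 0.96) and 0.58 (0.24 to 0.93). Smg9 was at 17.1 and 19.4 CPM in ESCs, and 16.9 and 25.6 CPM in 48h-EpiLCs, with ratios of 0.19 (-0.11 to 0.49) and 0.60 (0.31 to 0.90). Their WT values rest on 76 to 105 UMIs. Genes tested within 1 Mb had median ratios in ESCs and 48h-EpiLCs of 0.18 and 0.21 around Smg8, and of 0.38 and 0.24 around Smg9. The part of gene position in these ratios was not tested.

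The other NMD genes varied in direction between the lines. Smg1 was at 41.3 and 61.4 CPM in WT and KO ESCs but at 40.5 and 35.9 CPM in WT and KO 48h-EpiLCs, with ratios of 0.57 (0.39 to 0.76) and -0.17 (-0.36 to 0.02). Upf2, a bridge between Upf1 and the exon junction complex, had the lowest ratio in ESCs, at 68.2 and 53.9 CPM. Smg5, which recruits phosphatase and decay factors, was at 70.5 and 75.7 CPM in ESCs, and 47.1 and 63.2 CPM in 48h-EpiLCs, with ratios of 0.10 and 0.42. Upf1, the central helicase, had ratios of 0.07 and 0.11 with intervals that covered 0. Upf3b, the only X-linked member, had ratios of -0.17 and -0.15, and the X chromosome as a whole had medians of -0.03 and -0.01.

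Upf1, Upf2, Upf3b, Smg1, Smg5 and Smg6 are known as targets of the pathway they serve. Their median KO over WT ratio was -0.03 in ESCs and -0.04 in 48h-EpiLCs, and their summed level was 382 CPM in both lines of ESCs and 314 and 321 CPM in WT and KO 48h-EpiLCs.

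The ratio of the lines was then compared between the stages, as the KO over WT log2 ratio in 48h-EpiLCs minus that in ESCs. Smg1 was the only member whose difference passed 1.5-fold, at -0.75 (-1.01 to -0.48), and among 8827 genes 6.51% passed it in this direction and 4.24% in the other. The interval of the difference lay below 0 for 6 members, Smg1, Exosc4 (-0.55), Dis3 (-0.50), Edc3 (-0.36), Exosc7 (-0.21) and Exosc2 (-0.16), against 18.4% of all genes. It lay above 0 for 7 members, Smg9 (0.41), Dcp2 (0.34), Smg5 (0.32), Lsm6 (0.24), Lsm4 (0.19), Xrn2 (0.18) and Ddx6 (0.18), against 15.1%. For Exosc2 the interval is too narrow, because its counts varied between cells by more than counting error, as described below. For Smg1 and Dis3, KO ESCs were the class that stood above the other 3, whereas for Exosc4 WT ESCs lay below the other 3.

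The comparison of stages asked how the same transcripts differ between naive-side and formative-side cells within a line. In WT cells, Exosc7 and Exosc2 were at least 1.5-fold higher in 48h-EpiLCs and Dcp2 at least 1.5-fold lower, that is 2 and 1 of 39 members, against 14.6% and 12.4% of 9242 genes. In KO cells no member was at least 1.5-fold higher, and Smg1 and Dcp2 were at least 1.5-fold lower, that is 0 and 2 of 38 members, against 9.51% and 11.1% of 9478 genes. Intervals lay above a ratio of 1 for 12 and below it for 10 members in WT cells (28.2% and 25.4% of all genes), and for 15 and 22 members in KO cells (37.8% and 41.9%).

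**Figure D3:**
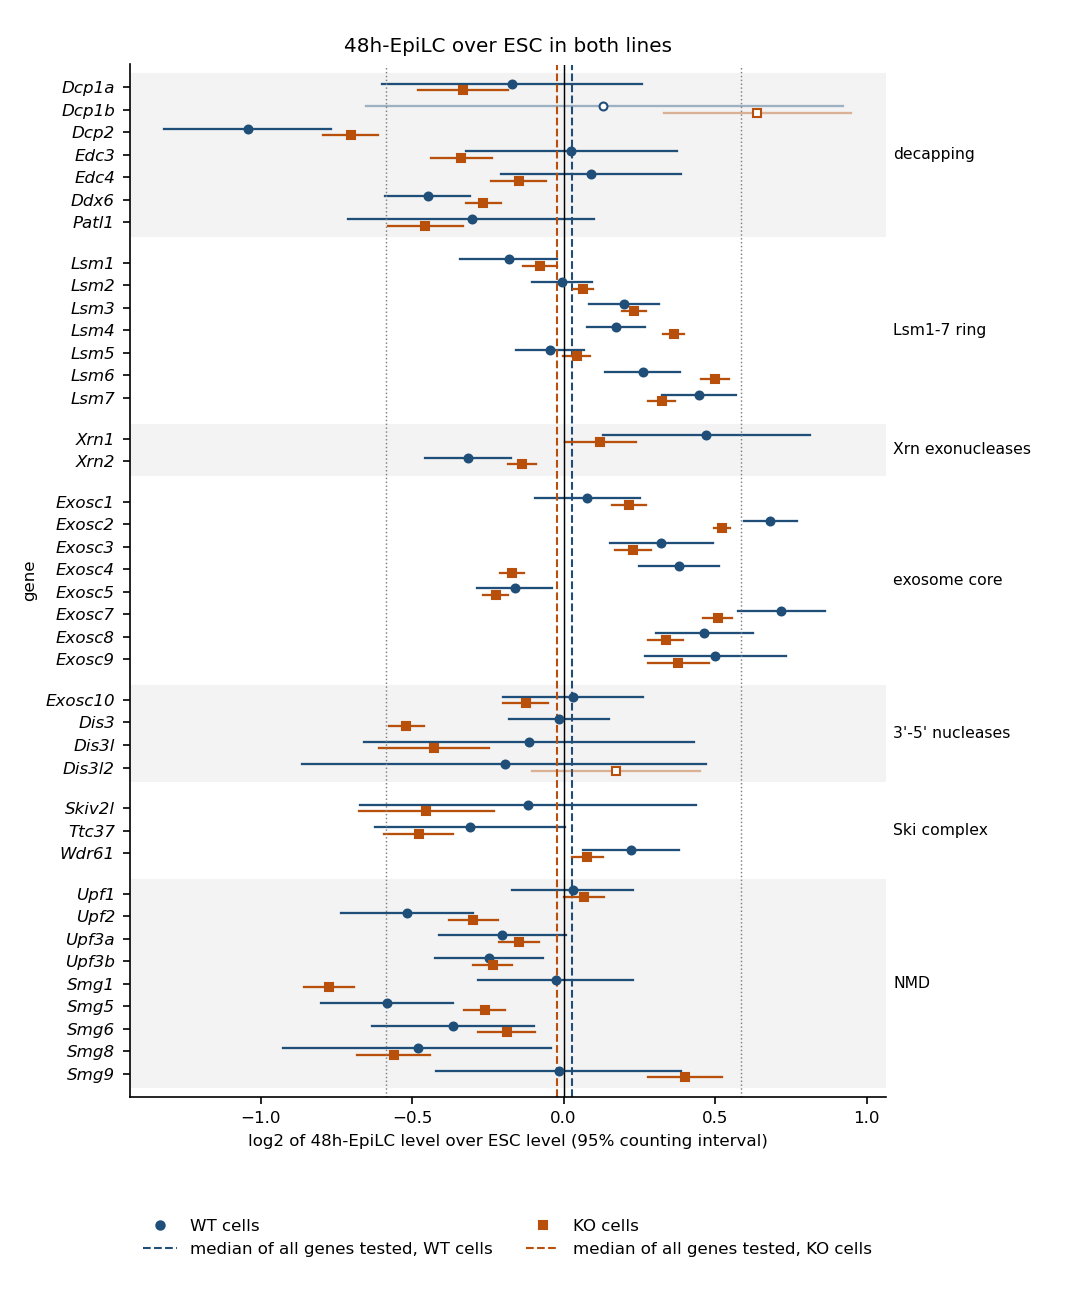
Log2 ratio of the 48h-EpiLC to the ESC level of each gene in WT cells (circles) and KO cells (squares), with 95% counting intervals, dashed lines for the median of all genes tested (0.03 and -0.02), dotted lines for 1.5-fold and open symbols for genes under 5 CPM. Most exosome core genes and Lsm3, Lsm4, Lsm6 and Lsm7 lie right of 0, whereas Dcp2, Ddx6, Upf2, Smg5 and Smg8 lie left of 0 in both lines.

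Dcp2, the catalytic decapping enzyme, had the lowest ratio of all members in WT cells. Its level was 54.6 CPM in WT and 49.6 CPM in KO ESCs, and 26.5 CPM in WT and 30.5 CPM in KO 48h-EpiLCs, so that both lines were lower at the later stage, by -1.04 (-1.32 to -0.77) and -0.70 (-0.79 to -0.61). The other decapping genes differed less. Ddx6 was lower by -0.45 and -0.27 in WT and KO cells, and Patl1 had ratios of -0.30 and -0.46, the former with an interval that covered 0. Edc4 had the highest ratio of the group in both lines, 0.09 (-0.21 to 0.39) and -0.15 (-0.24 to -0.06). The median of the 6 genes was -0.24 in WT and -0.33 in KO cells, and in KO cells all 6 intervals lay below 0.

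The exosome core had positive medians. Exosc7 was at 105 and 117 CPM in WT and KO ESCs, and 173 and 166 CPM in WT and KO 48h-EpiLCs, higher at the later stage by 0.72 (0.58 to 0.86) in WT and 0.51 (0.46 to 0.56) in KO cells. Exosc3, Exosc8 and Exosc9 were higher by 0.32, 0.46 and 0.50 in WT and by 0.23, 0.34 and 0.38 in KO cells. Exosc2 was higher by 0.68 (0.60 to 0.77) and 0.52 (0.50 to 0.55). Exosc5 was the exception in both lines, at 184 and 197 CPM in ESCs and 165 and 169 CPM in 48h-EpiLCs, with ratios of -0.16 and -0.22, and Exosc4 was higher in WT cells (0.38) but lower in KO cells (-0.17). The interval lay above 0 for 6 of the 8 core genes in WT and for 6 of 8 in KO cells, and the median was 0.42 and 0.28, or 0.38 and 0.23 without Exosc2.

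The Lsm ring had medians of 0.17 in WT and 0.23 in KO cells, from Lsm1 at -0.18 and -0.08 to Lsm7 at 0.45 and 0.32 and Lsm6 at 0.26 and 0.50. Lsm7 was at 152 and 144 CPM in ESCs, and 207 and 180.0 CPM in 48h-EpiLCs, and Lsm6 at 155 and 126 CPM and at 186 and 178 CPM. Both were higher at the later stage in both lines. Lsm2 and Lsm5 had ratios between -0.04 and 0.06.

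The exonucleases and the Ski complex did not share a direction. Xrn1 was higher in 48h-EpiLCs by 0.47 (0.13 to 0.81) in WT and 0.12 (0.00 to 0.24) in KO cells, and Xrn2 lower by -0.32 and -0.14. Dis3 was level between the stages in WT cells (-0.02, -0.18 to 0.15) and lower in KO 48h-EpiLCs than in KO ESCs (-0.52, -0.57 to -0.46). Exosc10 had ratios of 0.03 and -0.12. Ttc37 had ratios of -0.31 (-0.62 to 0.01) and -0.48 (-0.59 to -0.36), whereas Wdr61 had ratios of 0.22 and 0.08.

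NMD genes had negative medians between the stages. The median of the 9 genes was -0.25 in WT and -0.23 in KO cells, and 8 of 9 had a negative ratio in WT and 7 of 9 in KO cells, against 4395 of 9242 and 4936 of 9478 of all genes. In WT cells 5 of the 9 intervals lay below 0 and 4 covered it, and in KO cells 7 lay below 0 and 2 above. Smg5 had the lowest ratio in WT cells, -0.58 (-0.80 to -0.36) against -0.26 in KO cells. Upf2 was at 68.2 and 53.9 CPM in ESCs, and 47.8 and 43.9 CPM in 48h-EpiLCs, with ratios of -0.52 and -0.30. Smg8 had ratios of -0.48 and -0.56. Smg1 was lower in KO 48h-EpiLCs than in KO ESCs by -0.77 (-0.86 to -0.69), whereas its ratio in WT cells was -0.03 (-0.28 to 0.23). Upf1 had ratios of 0.03 and 0.07, and Smg9 was higher in KO 48h-EpiLCs (0.40, 0.28 to 0.52) and level in WT cells (-0.02).

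A further 30 genes of these pathways were examined. In ESCs, 1 was at least 1.5-fold higher in KO cells and 2 at least 1.5-fold lower, of 27 compared, against 13.9% and 5.61% of all genes. In 48h-EpiLCs these were 0 and 1 of 28, against 9.04% and 4.95%. At the later stage 2 of 28 were at least 1.5-fold higher in WT and 3 of 28 in KO cells, against 14.6% and 9.51%. Exosc6, a core exosome gene, had 0 UMIs in all 4 classes. Whether its transcript is absent or its reads were not counted was not tested. Between the lines, Tent4b, a nuclear poly(A) polymerase that marks RNAs for the exosome, was at 20.5 and 34.5 CPM in WT and KO ESCs, Dxo was at 22.9 and 14.8 CPM, and Magohb, a subunit of the exon junction complex, was lower in KO cells at both stages. Magohb was at 28.3 and 18.5 CPM in WT and KO ESCs, and 62.7 and 37.0 CPM in WT and KO 48h-EpiLCs, which made it higher at the later stage by 1.15 and 1.00. Dhx34, an NMD helicase, was higher at the later stage by 1.08 and 0.95 from 4.55 and 3.45 CPM in ESCs, and Lsm8 by 0.66 in KO cells.

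The spread between single cells was compared with counting error, as the variance of the counts over that of a Poisson draw of the same depth. For the 39 members other than Exosc2 this ratio was between 0.866 and 1.37 in all 4 classes. Exosc2 was at 2.80 in WT and 3.22 in KO ESCs and at 3.69 in WT and 4.85 in KO 48h-EpiLCs, above 98.7%, 98.5%, 98.3% and 98.5% of the genes whose level was within 1.5-fold of its own. All intervals given for Exosc2 assume Poisson counts and are therefore too narrow. After thinning each cell to 5000 UMIs, with 1 to 23 shallower cells left out per class, the 40 members together had means of 17.9 and 19.2 UMIs per cell in WT and KO ESCs and 19.4 and 20.5 UMIs in WT and KO 48h-EpiLCs. Without thinning, the spread of the other 39 genes was close to that of counting alone. The same held for genes within 1.5-fold of their levels, with median ratios of variance between 1.02 and 1.19.

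**Figure D4:**
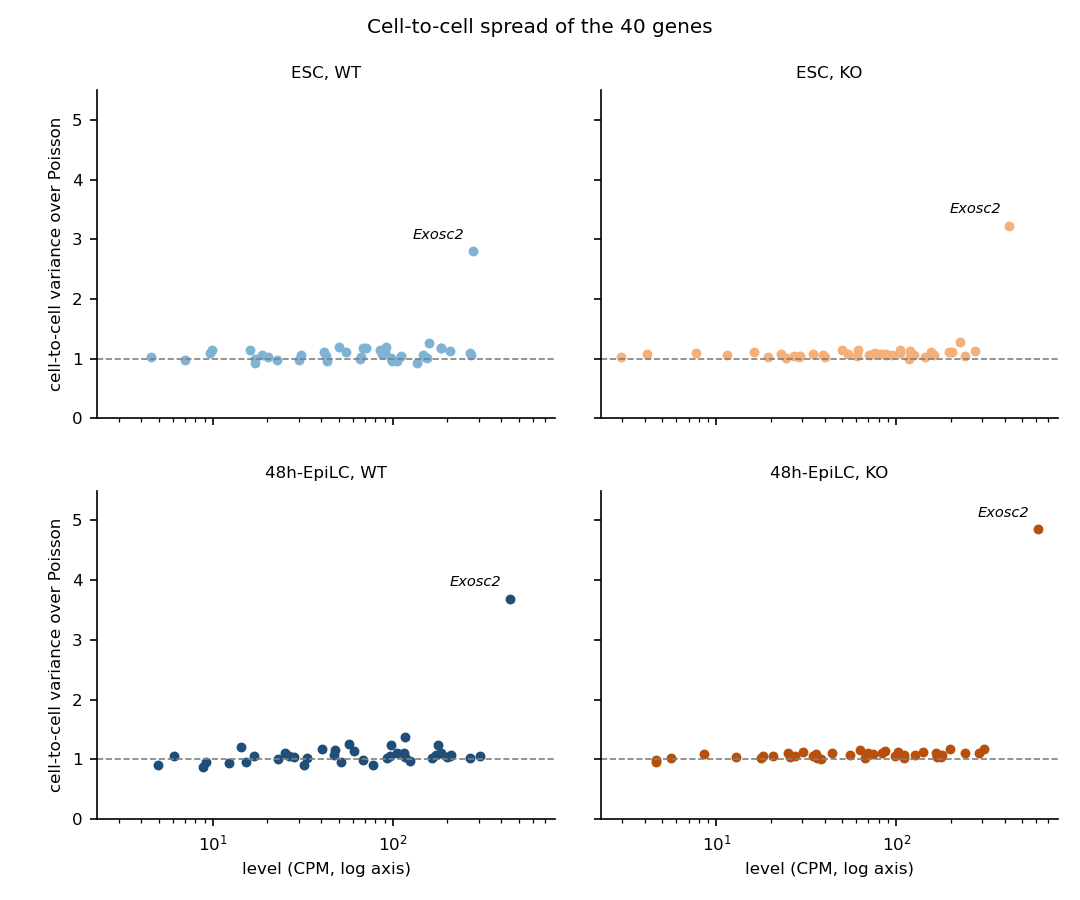
Cell-to-cell variance over that of Poisson counts for each of the 40 genes against its level in CPM (log axis), 1 panel per class, with a dashed line at 1. Exosc2 lies between 2.80 and 4.85 in the 4 panels, and the other 39 genes lie near 1.

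Because Exosc2 stood apart in this way, the genes whose level followed it from cell to cell were looked up in all 4 classes, among 4744 genes of at least 20 CPM in every class. The closest was AC160336.1, a long noncoding RNA gene on the minus strand of chromosome 14 (44544055 to 44637201), with Pearson's r of 0.41 in WT and 0.48 in KO ESCs and 0.42 in WT and 0.54 in KO 48h-EpiLCs. The next were Plk4, with r between 0.19 and 0.29, and Dennd5b, between 0.11 and 0.31. The median r over these genes, averaged over the classes, was 0.01, and the highest such average among 31 other members was 0.06. AC160336.1, Plk4 and Dennd5b were named after their values were seen, and r is a description over cells that share a library and differ in depth. AC160336.1 was at 5302 CPM in WT and 10261 CPM in KO ESCs and at 10706 CPM in WT and 15520 CPM in KO 48h-EpiLCs, the same order of classes as Exosc2. Its part in the Exosc2 ratios between lines and stages was not tested.

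Positions and promoters were also described. The members lie on 17 chromosomes of GRCm38, and none on chromosome 16, whose genes had medians of -0.30 and -0.31 between the lines while the medians of the other autosomes were between 0.02 and 0.20. RefSeq promoter windows, from 250 bases before to 50 after a start site on GRCm38.p6, were at hand for 32 members in 36 windows. The NRF1 motif, which is shown in capitals in the sequences that follow, was in 12 of these windows (33.3%) on either strand, against 11.6% of 9429 windows of the genes compared in ESCs and 4.60% of all 32851 windows. The YY1 motif AAGATGGCG was in 13.9%, 3.65% and 1.40%, the GC box GGGCGG in 27 of the 36 windows, 65.5% and 35.7%, and the CCAAT box CCAAT in 38.9%, 38.4% and 37.4%. The ETS motif CCGGAAGT was in 8.33%, 9.44% and 3.89%, the CRE TGACGTCA in 2.78%, 3.46% and 1.79% and the E-box CACGTG in 5.56%, 10.8% and 7.15%. The median GC content was 64.7% in the members' windows, 61.3% in those of the genes compared and 52.7% in all. Both strands were searched for every motif. Such matches are descriptions of letters and not of bound sites.

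The NRF1 matches came from genes of several steps, namely Dcp1a and Patl1 of decapping, Lsm7 of the ring, Exosc1, Exosc2, Exosc5 and Exosc7 of the exosome core, Ttc37 of the Ski complex and Upf1, Smg6 and Smg9 of NMD. Matches with their flanks are shown for genes of each step, because this motif was the one whose share in the members' windows was furthest in percentage points above that of the genes compared. Each run is read on the strand of the gene, and capitals mark the motif or its reverse complement.
Dcp1a, chr14:30479441-30479470, plus strand: cggctccaccGCGCAGGCGCgggggcctgt
Patl1, chr19:11912278-11912307, plus strand: ccgacggcccGCGCGTGCGCagtgtctcgc
Lsm7, chr10:80855239-80855268, minus strand: cgccgaggctGCGCGTGCGCaaaggcctcc
Exosc1, chr19:41933465-41933494, minus strand: ccacccagctGCGCAGGCGCgaggcccgga
Exosc7, chr9:123113191-123113220, plus strand: ggctgatgacGCGCAGGCGCggtggggaga
Ttc37, chr13:76098659-76098688, plus strand: ccaagggcagGCGCATGCGCaaaaaccaat
Upf1, chr8:70353421-70353450, minus strand: ccgcctcttcGCGCAGGCGCacggcgagtt
Smg6, chr11:74925674-74925703, plus strand: ttacacctctGCGCACGCGCacacgccgtc
Smg9, chr7:24399478-24399507, plus strand: gagaaacaatGCGCACGCGCcttctcagca

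The members with such a match did not share a direction. Between the stages in WT cells, Exosc7 had the highest ratio of all members (0.72), Exosc5 (-0.16) and Smg6 (-0.36) had negative ratios, and Upf1 was level (0.03). Between the lines in ESCs, Exosc2 was higher in KO cells, and Dcp1a was level (0.01).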

How the data were processed

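The authors deposited UMI counts per gene and barcode for 2 libraries, made with Cell Ranger 3.0.2 on mm10 with the tdTomato coding sequence added, per the labels, and the submitters' processing notes also name Seurat 4. Cell Ranger was run with its default settings, and the sources used here do not spell out how it treated strand. Of the members, 16 overlap a feature on the opposite strand and 3 overlap one on the same strand. Of 13184 and 12427 barcodes (144584246 and 163771168 UMIs), 11054 and 9400 were kept, with a minimum of 1000 genes and a limit of 10% on mitochondrial UMIs.

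No column gives the line of a cell, so classes were set from tdTomato and Y-linked UMIs, and cells with both were left out. The sources used here do not give the sex of the lines, and line, sex and genotype cannot be told apart. No doublet caller was run. An alternative left out the cells above the 90th percentile of UMIs.

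Counts were summed per class and scaled to the class total (CPM), with no pseudocount. Genes with a mean of at least 5 CPM over the classes compared were compared at a fold of 1.5, with exact 95% intervals and no p-value, and the text calls these the genes tested or compared. With 1 library per stage, no design gives a test. The interval calculation was tested on simulated Poisson counts, with no further spread between cells. Python 3.11.15, numpy 2.4.6, scipy 1.17.1, pandas 2.3.3 and matplotlib 3.10.9 were used, and R 4.3.3 with edgeR 4.0.16 for TMM scaling only.

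The members and gene lists, although set by name, were chosen with earlier results of these data known. Values are given for members at least 1.5-fold apart or at the ends of their group, and of 30 other pathway genes for those at least 1.5-fold apart, except 1 result that is not reported here. Further members were named for contrast. For each comparison 14 alternatives were computed, and the exosome core without Exosc2 was added after seeing the data. Promoter windows came from RefSeq (GRCm38.p6), and 8 members had none.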

Additional observations from a re-analysis of the deposited data

Results flagged for a closer look

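Dis3 had a KO over WT log2 ratio of 0.28 in ESCs and -0.22 in 48h-EpiLCs, and was singled out because the lines differ in opposite directions at the 2 stages. How many of all genes do so was not computed. The difference, -0.50 (-0.68 to -0.33, counting error alone), was not tested, since each stage is 1 library. Dis3 overlaps Pibf1 on the opposite strand, which was at 17.9 CPM in WT and 17.1 CPM in KO ESCs and lower in both lines of 48h-EpiLCs. The part of Pibf1 in the Dis3 values was not tested.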

How the results depend on the processing

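Of 168 values under 14 alternatives (medians and counts of members), 27 moved beyond the limits set (counts by over 1.5 times, medians beyond their interval). All 14 member ratios at least 1.5-fold apart kept their sign, 6 of them past 1.5-fold in every alternative. Not every alternative could move a given ratio, so the kept signs are a weak check. The level filters change no ratio. Other definitions of WT cells leave the stage ratios within KO cells as they were, and the reverse. The definition by at least 20000 UMIs asks for no tdTomato, so that KO cells can be among its WT cells, and it differs from the KO class in depth. In ESCs, 4 members were at least 1.5-fold higher in KO cells, but 2 with WT cells of any Y-linked UMIs, 1 with WT cells of at least 20000 UMIs and 0 Y-linked UMIs, 1 under TMM scaling and 0 with ratios taken from the median of all genes. With WT cells of at least 20000 UMIs that 1 member was Dis3l, which is not among the 4. Of the 2 lower members, 1 was left with KO cells of at least 1 Y-linked UMI, 1 with WT cells of any Y-linked UMIs, 1 with WT cells of at least 20000 UMIs and 1 at a minimum of 20 CPM. In 48h-EpiLCs the 1 higher member became 0 with KO cells of at least 1 Y-linked UMI, with WT cells of at least 20000 UMIs, under TMM, from the median or with 1 CPM added, and 2 with cells of 10000 to 20000 UMIs or without cells above the 90th percentile. The 2 lower members became 0 with either other definition of WT cells, and 1 with cells of 10000 to 20000 UMIs, with 1 CPM added, at 20 CPM or with means of single cells. Between stages in WT cells, the 1 lower member became 2 with either other definition of WT cells, with cells of at least 2000 genes and at most 5% mitochondrial UMIs, under TMM and from the median, and in KO cells the 0 higher members became 1 (Dcp1b) with no filter. Medians of all members lay near 0 and changed sign in ESCs under TMM (-0.03) and from the median (-0.04), in 48h-EpiLCs under these (-0.03 and -0.06) and with WT cells of any Y-linked UMIs (-0.03), and between stages in WT cells with at least 2000 genes (0.01) or at 20 CPM (0.03). Apart from the filters and scalings, the cause was not tested. The WT classes hold 435 and 368 cells, which limits genes under about 20 CPM. No paired analysis was possible because each stage is 1 library with no replicate.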
